A study of Homo sapiens with 20 samples.

Results

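HCT-116, a cell line established from a human colorectal cancer, was profiled by total RNA sequencing and compared between 12 libraries of synchronised, drug-treated cells and 4 libraries of asynchronous cells. These 16 of the study's 20 libraries were chosen by their treatment labels. The 12 drug libraries came from 3 groups of 4: synchronised cells given 20 µM MG132 for 3 h, synchronised cells given 100 nM bortezomib for 3 h, and synchronised cells given 20 µM MG132 together with 50 µg/ml α-amanitin for 3 h. Synchronisation was a single block of 16 h in 2 mM thymidine followed by 7 h in fresh medium. The other 4 libraries, called G2 cells here, had the same block and release and 0 h of drug. Asynchronous cells had neither block nor drug. Every group thus came from the same line and medium, and the drug groups differ from asynchronous cells by the block, the release, a further 3 h and a drug at once, which cannot be told apart in this comparison. A vehicle group at 3 h was not analysed here, so a difference between a drug group and G2 cells also holds 3 h of cell cycle time. The labels do not state that replicates came from separate cultures, and p-values then measure only the spread between these samples.

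The comparison asked which differences from asynchronous cells were present in every drug group after 3 h. The call rule was an adjusted p below 0.05 in edgeR's quasi-likelihood test, with Benjamini-Hochberg adjustment over the 18959 genes tested, and a gene counted as persistent where it was called in the same direction in all 3 drug groups. Of 18959 genes, 403 were persistently higher and 380 persistently lower, which are 2.13% and 2% of the genes tested (4.13% together). Counts of persistent genes in lists are to be read beside these shares. The word persistent stands for this rule alone and does not mean that a change was already present in G2 cells. Of the persistent genes, 184 higher and 362 lower ones were not called in G2 cells. The 3 comparisons share the 4 asynchronous libraries, so a departure of these libraries from the cells they represent enters all 3. In bulk libraries fewer cells of a kind and less RNA per cell cannot be told apart.

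Excess thymidine depletes the cell of dCTP and stalls replication forks, and cells released from it pass through S phase together and reach G2 and mitosis hours later. The proteasome degrades cyclin B and securin through the anaphase-promoting complex, and cells in which it is blocked stop before anaphase while misfolded and short-lived proteins build up and activate heat shock factor 1, ATF4 and NRF2. α-Amanitin binds RNA polymerase II and slows its movement along DNA, so that transcripts with a short half-life fall first and long-lived ones remain.

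The smallest library held 26797395 counts and the largest 39710457. All 10 epithelial markers were detected in every library, with summed levels of 3698 to 6157 CPM (counts scaled to TMM-adjusted library totals) in drug libraries and 4118 to 6004 CPM in asynchronous libraries. In 4 libraries (MG132 replicates 2 and 4, G2 replicate 2 and asynchronous replicate 3) log2 CPM relative to the mean of all libraries moved with GC content by -0.409, 0.733, 0.359 and 0.502 per 10 points of GC, and in the others by at most 0.264 in either direction. Asynchronous replicate 1 had 67.6% of its counts in protein-coding genes, against 80.1% to 80.7% in the other asynchronous libraries, and a TMM factor of 0.718. G2 replicate 1 stood apart in the same way, with 68.3% against 80.2% to 82.2% in the other G2 libraries and a TMM factor of 0.849. The sample codes carry an undocumented letter, which is spread unevenly over the groups; it is examined here as a possible batch.

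Against asynchronous cells, MG132 gave 852 higher (4.49% of 18959) and 758 lower genes (4%), 8.49% in all. Bortezomib gave 716 higher (3.78%) and 775 lower (4.09%), 7.86% in all, and MG132 with α-amanitin 1441 higher (7.6%) and 1305 lower (6.88%), 14.5% in all. The bortezomib calls, 1491, became 575 and 621 without bortezomib replicates 1 and 2, and 748 and 938 without asynchronous replicates 1 and 3. The 2746 calls of MG132 with α-amanitin became 1784 and 1669 without its own replicates 1 and 2. Among the persistent genes the median log2 fold change of the higher set was 1.62 with MG132, 1.59 with bortezomib and 1.75 with MG132 and α-amanitin. In the lower set it was -1.11, -1.13 and -1.10 in the same order. A change of at least 2-fold in all 3 drug groups was reached by 304 of the 403 higher genes and 182 of the 380 lower genes. In 301 of the 403, every drug library lay above every asynchronous library, and 280 of the 380 had every drug library below. Over all genes tested, 2.26% had all 12 drug libraries above and 2.48% had them below. The same libraries chose the persistent genes, so these counts only describe them. 

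Within code letters, 7 differences between the mean of a drug group's libraries and the asynchronous library of the same letter could be formed, and 396 of 403 and 373 of 380 genes went the persistent way in all 7, against 10.7% higher and 11.4% lower in all 7 over the 18959 genes tested. The same libraries chose the persistent genes, so this count is only a description. A fit with the letter as a block called 108 higher and 43 lower genes in all 3 groups. Of 38 persistent genes and repeats given with values here, 13 lost a call in that fit: KIF3C, KIF20A, VWF and BAG3 among the higher genes, MFSD5, IMP3, JUNB, NR1D1, PDE4B, H4C1, NFKBIA and CDKN1B among the lower ones, and the repeat HERV9-int. On the scale of mitochondrial mRNA 14 lost it: TUBA1A, KIF3C, LTBP2, IRAG1, TGM2, KIF20A, OPTN, TSC22D3, ATF3, BAG3, OSGIN1, MAP1LC3B and GABARAPL1 among the higher genes and CDKN1B among the lower ones. Without the 4 GC-skewed libraries TUBA1A, KIF20A, KRT20 and H4C1 lost it. KIF20A also lost it with total library size or no filter, BAG3 with the replicate block, and both with the strict filter or the 16 libraries alone. Calls in G2 cells were lost on the mitochondrial scale by TRIML2, KIF3C, LTBP2, TGM2, KIF20A, OPTN, ACTA2, THEM6, SLC2A3 and CDC25C, and with the letter block by TRIML2, KIF3C, VWF, GBP2, THEM6, H4C1, CDC25C and HERV9-int. No asynchronous library carried the letters of MG132 replicate 1, bortezomib replicates 2 and 4 and the first replicate of MG132 with α-amanitin.

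Of the 403 persistent higher genes 95 had a mean log2 CPM of 3 or more, against 196 of the 380 lower genes. The share over all genes tested was not worked out, so neither count is read as high or low. Protein-coding genes made up 329 of the higher and 258 of the lower set, against 13747 of the 18959 genes tested. Antisense genes made up 20 and 52, with no count over all genes worked out. The higher set numbered 245 and 228 without bortezomib replicates 1 and 2, and 256 and 258 without asynchronous replicates 1 and 4. The lower set numbered 170 and 211 without bortezomib replicates 1 and 2, 177 and 199 without asynchronous replicates 1 and 3, 237 and 250 without MG132 replicates 1 and 3, and 249 and 247 without MG132 with α-amanitin replicates 1 and 2. Scaling moved the balance: total library size gave 458 higher and 200 lower genes, and scaling to mitochondrial mRNA gave 104 and 174. For MG132 with α-amanitin alone those scalings gave 1996 higher and 699 lower, and 424 higher and 1508 lower. For bortezomib total library size gave 804 higher and 428 lower, and for MG132 the mitochondrial scale gave 279 higher and 403 lower.

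The 3 drug groups were also compared with each other. A joint F test over the 3 drug groups called 294 of 18959 genes (1.55%), or 156 and 167 without MG132 with α-amanitin replicates 1 and 2. Of the persistent genes it called 19 of 403 higher (4.71%) and 6 of 380 lower ones (1.58%), against 1.55% of all genes tested. It called 18 of the 184 higher genes not called in G2 cells (9.78%) and 1 of the 219 called there (0.457%). A miss in this test does not show equal levels. Only 2 genes were called in all 3 drug groups without a common direction: IER5, an immediate early gene, and the gene ENSG00000274072, both higher with MG132 and with bortezomib and lower with MG132 and α-amanitin.

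The persistent genes were split by their call in G2 cells. G2 cells differed from asynchronous cells in 369 higher genes (1.95% of 18959) and 28 lower genes (0.148%), and 219 of the 369 (59.3%) and 18 of the 28 (64.3%) were persistent. Read from the drug groups, 219 of the 403 persistent higher genes (54.3%) were called higher in G2 cells, and 18 of the 380 persistent lower genes (4.74%) were called lower. The 219 had a median log2 fold change of 0.03 for the mean of the drug groups against G2 cells. Of them 3 were called higher in that contrast, in which 181 of 18959 genes were called higher (0.955%) and 638 lower (3.37%). The 184 persistent higher genes not called in G2 cells had a median of 0.55 in that contrast, with 52 called higher. The 362 lower genes not called in G2 cells had a median of -0.75, with 198 called lower. These medians describe the classes, since the split itself used the G2 values.

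**Figure D1:**
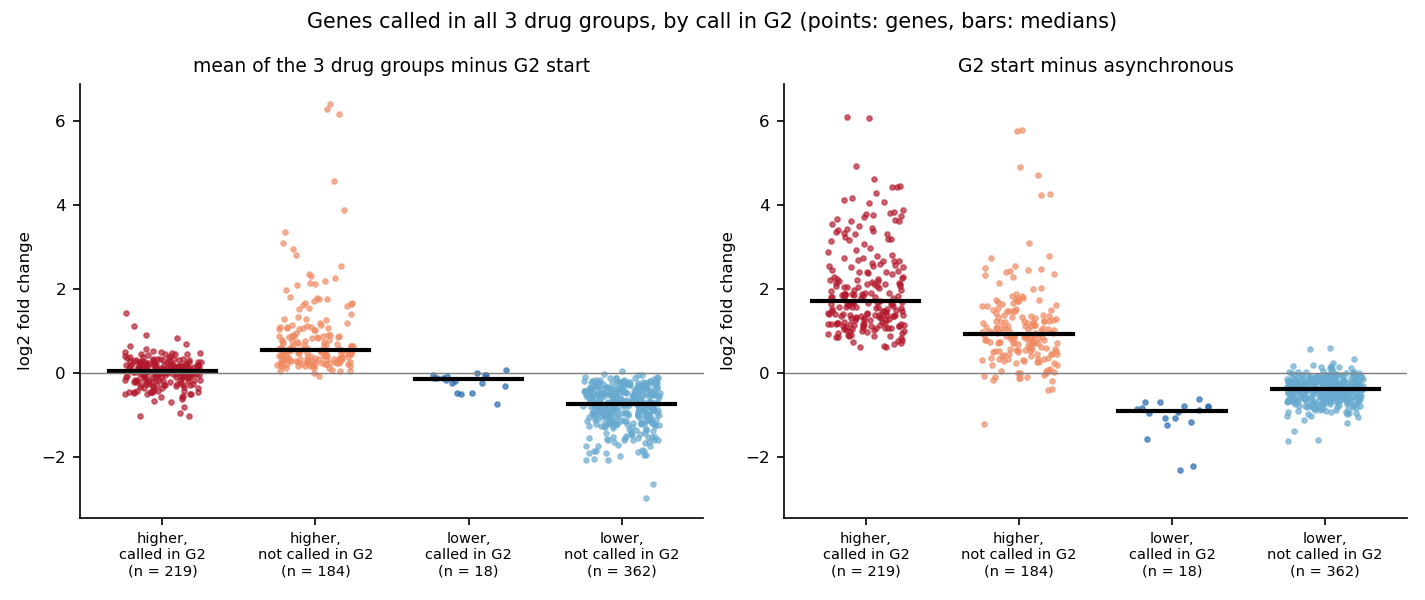
Log2 fold change of each persistent gene for the mean of the 3 drug groups minus G2 cells (left) and for G2 cells minus asynchronous cells (right), by direction and by call in G2 cells. Each point is a gene and each black bar a median: the 219 higher genes called in G2 cells centre on 0.03 in the left panel and on 1.70 in the right one, and the 362 lower genes not called in G2 cells on -0.75 and -0.39.

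The share also called in G2 cells depends on few libraries. The 219 became 139 without bortezomib replicate 2, 142 without asynchronous replicate 2, 96 without asynchronous replicate 4 and 129 without G2 replicate 4. The 18 lower ones became 2, 4 and 7 without G2 replicates 4, 3 and 1, 9, 36 and 7 without asynchronous replicates 1, 2 and 4, and 9, 9 and 39 without MG132 replicates 1, 3 and 4. They became 9, 11 and 11 without bortezomib replicates 1, 3 and 4, and 10, 10 and 11 without replicates 1, 2 and 3 of MG132 with α-amanitin. The count of 819 genes called between the drug groups and G2 cells became 352 without G2 replicate 1 and 341 without G2 replicate 2. Genes not called in G2 cells still had a median G2 log2 fold change of 0.92 (higher set) and -0.39 (lower set) against asynchronous cells.

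Ranked by the smallest of their 3 drug group changes, DHRS2 and TUBA1A stood first in a class of protein-coding genes. The class had a mean log2 CPM of 3 or more and calls as higher in all drug groups and in G2 cells. Its genes were also chosen for no overlap between drug and asynchronous libraries, so that lack of overlap is no separate result for them. DHRS2 encodes a mitochondrial short-chain dehydrogenase/reductase (chr14:23630115-23645639, hg38). It had 59.8, 69.5, 56.5 and 68.1 CPM with MG132, 111, 88.3, 72.2 and 34.3 CPM with bortezomib and 67.5, 71.3, 64.8 and 53.6 CPM with MG132 and α-amanitin. It had 72, 59, 35.3 and 101 CPM in G2 cells and 11.1, 3.7, 6.77 and 3.75 CPM in asynchronous cells. The lowest drug library lay at about 3 times the highest asynchronous one, and the G2 and drug libraries overlapped. The log2 fold changes against asynchronous cells were 3.33 ± 0.39, 3.60 ± 0.40 and 3.35 ± 0.39 in the drug groups (MG132, bortezomib, MG132 with α-amanitin) and 3.41 ± 0.39 in G2 cells, with edgeR adjusted p of 2.79e-05, 3.16e-05 and 3.04e-05 in the drug groups and 0.000363 in G2 cells. The mean of the drug groups differed from G2 cells by 0.02 ± 0.29 (adjusted p = 0.979). It kept its calls in all 32 alternatives run.

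TUBA1A, an α-tubulin gene (chr12:49184796-49189324, hg38), had 50.7, 106, 46 and 106 CPM with MG132, 48.7, 119, 45.3 and 31.1 CPM with bortezomib and 56.1, 85.6, 82.2 and 74.7 CPM with MG132 and α-amanitin. It stood at 155, 51.6, 66.5 and 52.6 CPM in G2 cells and 21.3, 15.9, 21.2 and 9.21 CPM in asynchronous cells. All drug libraries lay above all asynchronous ones, with a wide spread within each drug group. The log2 fold changes were 2.19 ± 0.44, 1.85 ± 0.44 and 2.15 ± 0.44 in the drug groups (adjusted p = 0.00441, 0.0143 and 0.00306) and 2.27 ± 0.44 in G2 cells (0.00946), and the bortezomib call was lost without bortezomib replicate 2 (0.0753). The call in all 3 was also lost on the mitochondrial scale (0.0548) or without the 4 GC-skewed libraries (0.0757), the largest adjusted p standing in brackets. It was the only one of 16 tubulin genes that was persistently higher, and TUBB, a β-tubulin gene, was the only one persistently lower.

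The 250 bases upstream of the RefSeq start of DHRS2 and TUBA1A (GRCh38.p14, along the gene's strand) are shown, since these genes stood first in that order at mean log2 CPM of 3 or more. The RefSeq start of TUBA1A lies inside the GENCODE gene. Capitals mark CCAAT on either strand (CCAAT or ATTGG) and TATAAA.
DHRS2, chr14:23629865-23630114, plus strand: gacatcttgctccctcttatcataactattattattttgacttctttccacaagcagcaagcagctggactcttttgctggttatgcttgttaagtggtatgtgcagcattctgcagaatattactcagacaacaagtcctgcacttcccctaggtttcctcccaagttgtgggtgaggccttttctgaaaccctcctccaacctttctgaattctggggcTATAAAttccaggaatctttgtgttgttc
TUBA1A, chr12:49189081-49189330, minus strand: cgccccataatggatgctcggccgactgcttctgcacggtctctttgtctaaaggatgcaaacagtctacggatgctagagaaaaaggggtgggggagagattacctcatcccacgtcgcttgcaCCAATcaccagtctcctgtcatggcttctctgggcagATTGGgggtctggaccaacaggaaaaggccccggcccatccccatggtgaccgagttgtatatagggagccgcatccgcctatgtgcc
The DHRS2 stretch held TATAAA and no CCAAT, with a GC content of 43.2%. The TUBA1A stretch held CCAAT 2 times and no TATAAA, with a GC content of 56.4%.

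The rule also named BAIAP3, IRAG1, KIF3C, LTBP2, TRIML2, NDRG4, FN1 and MYOM3 in this class. BAIAP3, a relative of the Munc13 vesicle-priming proteins, had 11.8, 13.7, 11.9 and 19.5 CPM with MG132, 12.6, 22.2, 9.58 and 9.92 CPM with bortezomib and 18.4, 19.9, 16.1 and 16.9 CPM with MG132 and α-amanitin. It had 14, 11.7, 12.2 and 13.7 CPM in G2 cells and 5.2, 3.95, 5.52 and 3.92 CPM in asynchronous cells. G2 and drug libraries overlapped and both stood clear of the asynchronous ones, with log2 fold changes of 1.61 ± 0.25, 1.55 ± 0.25 and 1.94 ± 0.25 in the drug groups (edgeR adjusted p = 0.000429, 0.00116 and 8.91e-05). IRAG1, a substrate of cGMP-dependent kinase at the inositol trisphosphate receptor, averaged log2 fold changes of 1.18 ± 0.18, 1.25 ± 0.19 and 1.67 ± 0.19 in the drug groups and 1.49 ± 0.19 in G2 cells. KIF3C, a kinesin-2 motor, stood at 1.57 ± 0.28, 1.25 ± 0.28 and 1.70 ± 0.28 and 1.48 ± 0.28, and LTBP2, a microfibril-associated matrix protein, at 1.19 ± 0.25, 1.27 ± 0.25 and 1.65 ± 0.25 and 1.36 ± 0.25. OPTN, a selective autophagy receptor, had 1.16 ± 0.24, 1.40 ± 0.24 and 1.65 ± 0.24 and 1.34 ± 0.24, although 1 drug library, MG132 replicate 4 at 12.2 CPM, lay below the highest asynchronous one at 13.2 CPM. Each of IRAG1, KIF3C, LTBP2 and OPTN was called in all 3 drug groups and in G2 cells by edgeR, and none of them differed from G2 cells by the test of the drug mean.

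TRIML2, a gene of the tripartite-motif-like family, was 1 of the 3 genes of the class called higher than in G2 cells. It had 50.4, 41.3, 45.5 and 30.6 CPM with MG132, 44.6, 36.3, 26.2 and 36.8 CPM with bortezomib and 19.3, 22.3, 21.3 and 17.7 CPM with MG132 and α-amanitin. It had 14.4, 12, 13.3 and 17.7 CPM in G2 cells and 5.35, 7.69, 7.19 and 7.08 CPM in asynchronous cells. The MG132 and bortezomib libraries all lay above the G2 libraries, while the libraries with α-amanitin overlapped with them. Its log2 fold change was 2.62 ± 0.21, 2.40 ± 0.21 and 1.56 ± 0.20 in the drug groups, 1.07 ± 0.20 in G2 cells, and 1.12 ± 0.17 for the drug mean against G2 cells (edgeR adjusted p = 0.000729). The 3 drug groups differed from each other (F test, adjusted p = 0.0109), a call lost without MG132 with α-amanitin replicate 1 (0.0665) or MG132 with α-amanitin replicate 4 (0.0545), and also with total library size (0.123), on the mitochondrial scale (0.0994) or with the letter block (0.0894). The difference from G2 cells was not called on the mitochondrial scale (0.0587).

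**Figure D2:**
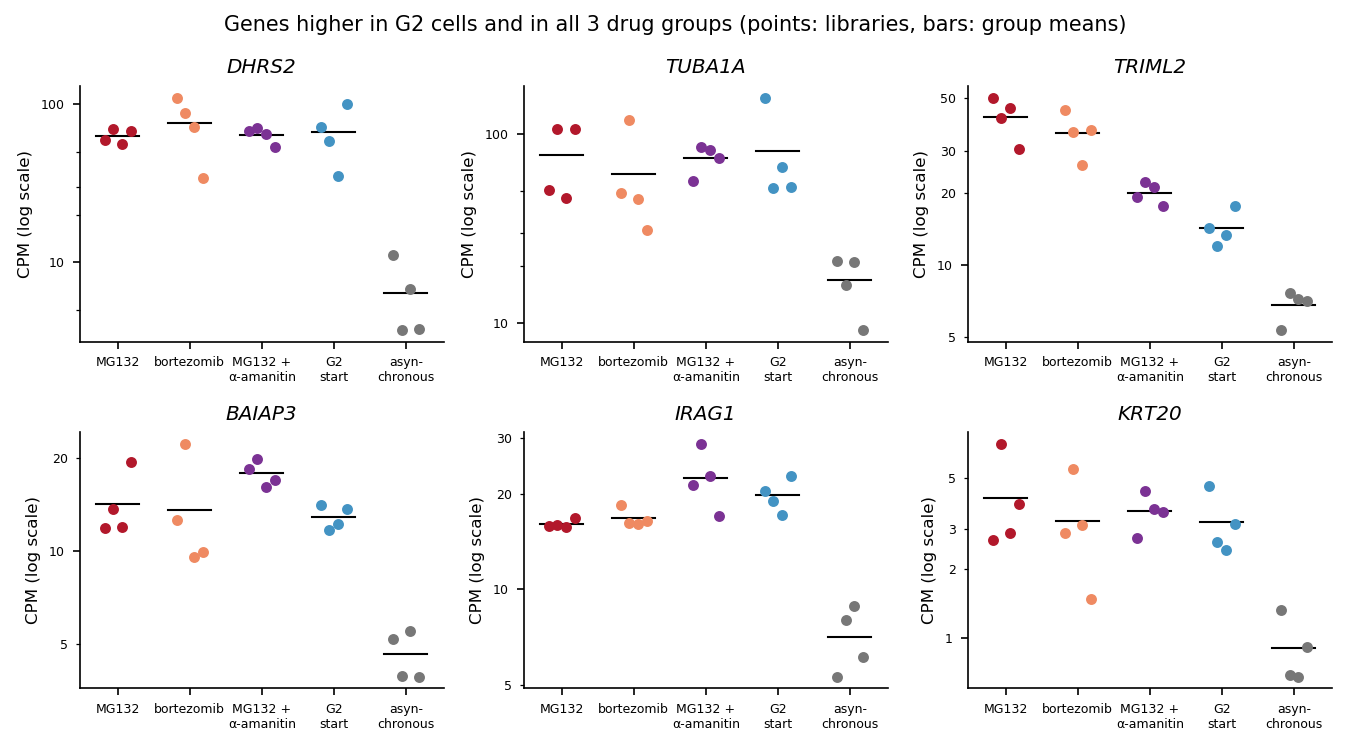
CPM on a log scale in each library for 6 genes higher in G2 cells and in all 3 drug groups; points are libraries and bars group means. In all 6 panels the 4 asynchronous libraries lie below every G2 and drug library, and in TRIML2 the drug groups sit above G2 cells on average.

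Of 51 G2/M and mitotic entry genes, 0 were persistent in either direction, against 4.13% of all genes tested. A list of this length would hold only a few at that share, and a miss does not show an unchanged level. In the single comparisons 2 of the 51 were higher with MG132, 0 with bortezomib, 2 with MG132 and α-amanitin and 2 in G2 cells, and in the α-amanitin group 2 were lower. Over all genes tested 4.49%, 3.78%, 7.6% and 1.95% were higher in the same order, and 6.88% were lower in the α-amanitin group. Cyclin B1, CCNB1, averaged log2 fold changes of 0.46 ± 0.23, 0.24 ± 0.23 and 0.23 ± 0.23 in the drug groups and 0.61 ± 0.23 in G2 cells with no adjusted p under 0.05, and its libraries overlapped: 390.3, 743, 463 and 557 CPM with MG132, against 474, 298, 418 and 375 CPM in asynchronous cells. CDC25C, the phosphatase that activates CDK1, was called in G2 cells (1.01 ± 0.20, adjusted p = 0.0118), though not without asynchronous replicate 4 (0.0579), and stood at 0.87 ± 0.20, 0.53 ± 0.20 and 0.73 ± 0.20 in the drug groups, with bortezomib not called (edgeR adjusted p = 0.0117, 0.109 and 0.0203). The call with α-amanitin was lost without asynchronous replicate 1 (0.0515), asynchronous replicate 4 (0.0615) or MG132 with α-amanitin replicate 4 (0.0634). Of 37 kinetochore and checkpoint genes 0 were persistent, as were 0 of 52 licensing and fork genes and 0 of 26 nucleotide synthesis genes. No test compared these counts with the share of 4.13% over all genes.

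KIF20A, a kinesin of the central spindle in cytokinesis (chr5:138178719-138187715, hg38), was the 1 of 13 spindle kinesins with a persistent call. It had 195, 228, 219 and 247 CPM with MG132, 229.9, 219.8, 254 and 177 CPM with bortezomib and 215, 201, 258 and 281 CPM with MG132 and α-amanitin. It had 245, 305, 271 and 284 CPM in G2 cells and 114, 119, 163 and 161 CPM in asynchronous cells. Every drug and G2 library lay above every asynchronous one, the lowest drug library at 177 CPM against 163 CPM. The log2 fold changes were 0.67 ± 0.18, 0.66 ± 0.18 and 0.78 ± 0.18 in the drug groups (adjusted p = 0.0251, 0.0302 and 0.00711) and 0.99 ± 0.18 in G2 cells (0.00726). The call in all 3 was lost in 13 of 32 alternatives, among them leaving out bortezomib replicate 1 (0.0873), bortezomib replicate 2 (0.0737), bortezomib replicate 3 (0.0791), asynchronous replicate 1 (0.0901), asynchronous replicate 2 (0.0656) or MG132 replicate 3 (0.0595), the largest adjusted p standing in brackets. Its upstream stretch is shown because KIF20A is the mitotic gene of the set (RefSeq, GRCh38.p14, with the start inside the GENCODE gene). Capitals mark CCAAT on either strand.
KIF20A, chr5:138178862-138179111, plus strand: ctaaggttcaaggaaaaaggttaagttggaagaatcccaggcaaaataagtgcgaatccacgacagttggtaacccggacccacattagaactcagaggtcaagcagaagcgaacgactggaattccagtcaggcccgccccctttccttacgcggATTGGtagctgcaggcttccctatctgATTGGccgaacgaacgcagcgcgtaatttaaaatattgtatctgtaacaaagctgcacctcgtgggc
It held CCAAT 2 times, both on the opposite strand, and TTTGAA, the core of the cell cycle homology region, 0 times.

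Not every gene called in G2 cells was called in the drug groups. SLC2A3, a glucose transporter gene, was higher in G2 cells (1.71 ± 0.35, 0.0138, lost without G2 replicate 4 (0.052)) and stood at 1.05 ± 0.35, 1.09 ± 0.35 and 1.23 ± 0.35 in the drug groups, where the α-amanitin group alone was called (edgeR adjusted p = 0.0678, 0.0602 and 0.0227). That call was lost without asynchronous replicate 1 (0.0611), MG132 with α-amanitin replicate 2 (0.0516) or replicate 3 of the same group (0.0794). CDKN1B, the CDK inhibitor p27, was the 1 of 27 E2F and G1/S genes with a persistent call. It had 18.3, 18.5, 20.2 and 12.9 CPM with MG132, 16.6, 16.6, 18.1 and 17.4 CPM with bortezomib and 11.1, 12.7, 13.6 and 18.7 CPM with MG132 and α-amanitin. It had 35.3, 30.1, 31.2 and 32.9 CPM in G2 cells and 32.6, 27.5, 34.9 and 32.9 CPM in asynchronous cells, so that G2 and asynchronous libraries overlapped and all drug libraries lay below both. CDKN1B stood at -0.87 ± 0.18, -0.90 ± 0.18 and -1.19 ± 0.18 (edgeR adjusted p = 0.00454, 0.00482 and 0.000292).

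Of 25 interferon-stimulated genes, 5 were persistently higher (OAS1, IFI6, OASL, GBP2 and STAT2) and 0 lower. Over all genes tested 2.13% were persistently higher and 2% lower. The median log2 fold change of the list was 0.928, 0.807 and 0.858, against -0.045, 0.0172 and -0.027 over all genes tested. GBP2, an interferon-induced GTPase, was called in all 3 in every one of the 31 alternatives that tested it (the other 4 genes were not examined in this way), at very low levels: 0.706, 0.87, 0.653 and 0.135 CPM with MG132, 0.44, 0.886, 0.481 and 0.222 CPM with bortezomib and 0.796, 0.689, 0.261 and 0.553 CPM with MG132 and α-amanitin. It had 0.698, 0.182, 0.43 and 0.529 CPM in G2 cells and 0.0491, 0.0314, 0.0356 and 0.0326 CPM in asynchronous cells, which for the asynchronous group is 1 count in each library. Its G2 call was lost without asynchronous replicate 4 (0.0555), and with limma-voom (0.0623) or with the letter block (0.0506). KRT20, a keratin of differentiated intestinal epithelium, had 2.68, 7.04, 2.87 and 3.85 CPM with MG132, 2.88, 5.45, 3.11 and 1.48 CPM with bortezomib and 2.75, 4.38, 3.65 and 3.54 CPM with MG132 and α-amanitin. It had 4.59, 2.62, 2.42 and 3.15 CPM in G2 cells and 1.33, 0.69, 0.677 and 0.914 CPM in asynchronous cells. No asynchronous library reached the lowest drug library. KRT20 stood at 2.20 ± 0.39, 1.85 ± 0.39 and 2.00 ± 0.39 on the log2 scale (edgeR adjusted p = 0.00146, 0.00742 and 0.00203), not called in all 3 without the 4 GC-skewed libraries (0.0633), and its G2 call (1.84 ± 0.39) was lost without asynchronous replicate 2 (0.0557), asynchronous replicate 4 (0.0564) or G2 replicate 1 (0.057).

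Of 27 actin cytoskeleton and SRF target genes, 3 were persistently higher, against 2.13% of all genes tested: ACTA2, TGM2 and FHL1. ACTA2, smooth muscle actin, had 2.19, 2.96, 2.2 and 2.2 CPM with MG132, 2.81, 2.25, 1.55 and 2.41 CPM with bortezomib and 2.39, 3.85, 3.39 and 2.27 CPM with MG132 and α-amanitin. It had 2.28, 1.48, 1.53 and 2.04 CPM in G2 cells and 0.884, 0.941, 0.783 and 0.555 CPM in asynchronous cells. Drug and asynchronous libraries did not overlap, and the log2 fold changes were 1.59 ± 0.27, 1.51 ± 0.27 and 1.91 ± 0.26 (edgeR adjusted p = 0.000922, 0.00225 and 0.000169). ACTA2 was also called in G2 cells (1.21 ± 0.26), though not without asynchronous replicate 4 (0.0847), G2 replicate 1 (0.065) or G2 replicate 4 (0.0628). TGM2, a transglutaminase, stood at 1.61 ± 0.27, 1.11 ± 0.27 and 1.75 ± 0.27 in the drug groups and 1.53 ± 0.27 in G2 cells, with the bortezomib call lost without bortezomib replicate 1 (0.0628), bortezomib replicate 2 (0.0513) or asynchronous replicate 1 (0.059). VWF, the von Willebrand factor of endothelium, is itself a persistent gene, with 1.04, 0.514, 1.18 and 1.42 CPM with MG132, 1.18, 1.26, 0.851 and 0.629 CPM with bortezomib and 1.48, 1.5, 0.75 and 1.08 CPM with MG132 and α-amanitin. It had 0.735, 0.884, 0.583 and 1.48 CPM in G2 cells and 0.196, 0.188, 0.0712 and 0.229 CPM in asynchronous cells. All drug libraries lay above all asynchronous ones (log2 fold changes 2.58 ± 0.43, 2.50 ± 0.43 and 2.79 ± 0.43, edgeR adjusted p = 0.000983, 0.00214 and 0.000405).

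Markers of other cell types were also summed. Summed over lists of 10 markers each, endothelial markers stood at 7.03 to 12.1 CPM in drug libraries and 3.33 to 6.09 CPM in asynchronous ones, fibroblast markers at 5.59 to 13 CPM and 3.23 to 4.27 CPM, and leukocyte markers at 2.89 to 6.86 CPM and 1.69 to 3.49 CPM. G2 libraries held 9.05 to 10.4 CPM of endothelial, 6.32 to 10.7 CPM of fibroblast and 3.31 to 4.05 CPM of leukocyte markers. Of these markers 2 endothelial (VWF and ESAM), 1 fibroblast (COL1A1) and 2 leukocyte genes (ITGAM and CD68) passed the filter on low counts. VWF and COL1A1 were persistently higher, while ESAM, ITGAM and CD68 were not persistent. Each sum was largely 1 gene: ESAM held 4390 counts over all 20 libraries, COL1A1 4731 and CD68 1990. The other 25 held between 0 and 121 counts over all 20 libraries together. PTPRC, a defining leukocyte gene, had no count in 13 libraries, DCN and POSTN of fibroblasts none in 17 and 19, and CDH5 and CLDN5 of endothelium none in 16 and 19. The part of other cells in these results was not tested.

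Stress genes stood highest among the persistent genes that G2 cells did not show. HSPA6, a strictly inducible HSP70 (chr1:161524540-161526910, hg38), had 91.3, 47, 88 and 76 CPM with MG132, 11, 3.72, 9.32 and 4.74 CPM with bortezomib and 1.65, 2.1, 0.945 and 1.85 CPM with MG132 and α-amanitin. It had 0.0367, 0.182, 0.123 and 0.159 CPM in G2 cells and 0.0982, 0.0314, 0.0356 and 0.0653 CPM in asynchronous cells, which add up to 18 and 6 counts over the 4 libraries of each group. The drug groups did not overlap with each other or with either untreated group. The log2 fold changes were 10.34 ± 0.53, 6.94 ± 0.51 and 4.81 ± 0.53 (edgeR adjusted p = 4.51e-10, 3.34e-07 and 1.7e-05), and the drug groups differed among themselves (F test, adjusted p = 6.65e-08). The upstream stretch of HSPA6 is shown because, of all persistent genes, it had the widest range over the drug groups (RefSeq, GRCh38.p14). Capitals mark GAANNTTC, a pair of inverted units of the heat shock element, where N is any base.
HSPA6, chr1:161524290-161524539, plus strand: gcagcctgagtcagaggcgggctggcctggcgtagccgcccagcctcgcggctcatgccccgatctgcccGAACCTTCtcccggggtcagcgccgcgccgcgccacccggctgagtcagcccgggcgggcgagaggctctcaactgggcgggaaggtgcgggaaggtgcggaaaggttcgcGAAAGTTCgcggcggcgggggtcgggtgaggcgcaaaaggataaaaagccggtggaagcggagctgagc
This stretch held GAANNTTC 2 times.

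CHAC1, an ATF4 target that degrades glutathione, had 83.4, 73.4, 84.1 and 114 CPM with MG132, 47.2, 50.2, 45.2 and 37.4 CPM with bortezomib and 4.67, 6.48, 9.06 and 8.32 CPM with MG132 and α-amanitin. It had 2.9, 2.18, 1.6 and 1.61 CPM in G2 cells and 3.24, 1.41, 2.74 and 1.01 CPM in asynchronous cells. All drug libraries lay above all others, and those with α-amanitin lay far below those with MG132 alone. CHAC1 stood at 5.41 ± 0.35, 4.43 ± 0.34 and 1.78 ± 0.31 on the log2 scale, and -0.01 ± 0.31 in G2 cells, with edgeR adjusted p of 1.92e-08, 3.34e-07 and 0.00105 in the drug groups. In the same order the drug groups stood at 4.14 ± 0.37, 2.86 ± 0.35 and 1.52 ± 0.33 in ATF3 (adjusted p = 8.38e-07, 0.000111 and 0.00471), a stress-induced transcription factor of the ATF/CREB family. TSC22D3, a leucine zipper protein also induced by glucocorticoids, stood at 3.60 ± 0.38, 2.40 ± 0.36 and 1.58 ± 0.36, and OSGIN1, an NRF2 target, at 3.25 ± 0.26, 2.34 ± 0.25 and 1.28 ± 0.24. In all 4 genes the 3 drug groups differed by the F test (adjusted p = 4.41e-06 for CHAC1, 0.000322 for ATF3, 0.00539 for TSC22D3 and 0.000196 for OSGIN1), a call that TSC22D3 lost without the 4 GC-skewed libraries (0.0678). BAG3, a co-chaperone of HSP70, reached 2.63 ± 0.19, 1.76 ± 0.19 and 0.61 ± 0.18 (F test 6.41e-06), and its call in the α-amanitin group (adjusted p = 0.0282) was lost without asynchronous replicate 2 (0.0782), asynchronous replicate 4 (0.0575), MG132 replicate 3 (0.0515), MG132 with α-amanitin replicate 2 (0.0865) or MG132 with α-amanitin replicate 4 (0.0746).

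For the stress lists, genes called in all 3 comparisons are given beside those called in each comparison. By the rule, a count over all 3 cannot exceed that of any single comparison. Over all genes tested 2.13% were persistently higher. In the single comparisons 4.49% of all genes were higher with MG132, 3.78% with bortezomib and 7.6% with α-amanitin added. Of 39 cytosolic heat shock genes 5 were persistently higher (HSPA6, BAG3, HSPB8, CRYAB and HSPA1L), although 15 were higher with MG132, 12 with bortezomib and 5 with α-amanitin added. Of 29 ATF4 target genes 5 were persistent (CHAC1, ATF3, SESN2, PCK2 and ALDH1L2), with 17, 13 and 5 called higher in the single comparisons. Of 23 NRF2 targets 1 was persistent, with 7, 4 and 1 called higher. The median log2 fold change of the heat shock list was 0.79, 0.363 and -0.168 and that of the ATF4 list 1.07, 0.685 and 0.0363. Both medians with α-amanitin changed sign with the scaling, to 0.0592 for heat shock on total library size and to -0.312 for ATF4 on the mitochondrial scale. SESN2 is counted in the ATF4 list and in the list of 30 p53 targets, of which it was the 1 persistent member.

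MAP1LC3B and GABARAPL1, both of the ATG8 family of autophagosome proteins, were persistently higher with no difference called among the drug groups. MAP1LC3B had 83.3, 94.7, 70.1 and 72.3 CPM with MG132, 77.8, 68.8, 67.4 and 65.7 CPM with bortezomib and 60.5, 84.3, 81.8 and 61.5 CPM with MG132 and α-amanitin. It had 60.8, 41.2, 41 and 43.9 CPM in G2 cells and 42, 35.2, 26.9 and 25.2 CPM in asynchronous cells. Its drug libraries all lay above the asynchronous ones. MAP1LC3B stood at 1.31 ± 0.20, 1.11 ± 0.20 and 1.16 ± 0.20 on the log2 scale (edgeR adjusted p = 0.000442, 0.00255 and 0.00092), and the mean of the drug groups was above G2 cells by 0.66 ± 0.17 (0.0266), a call lost without G2 replicate 2 (0.14), G2 replicate 3 (0.0881) or G2 replicate 4 (0.091), and also on the mitochondrial scale (0.401), without a filter on low counts (0.0607) or without the 4 GC-skewed libraries (0.0824). GABARAPL1 stood at 1.27 ± 0.16, 1.15 ± 0.16 and 0.71 ± 0.16 and 0.65 ± 0.14 above G2 cells, the last a call lost without G2 replicate 2 (0.0633), and also on the mitochondrial scale (0.405) or with the letter block (0.0619). The F test over the drug groups gave adjusted p of 0.923 for MAP1LC3B and 0.208 for GABARAPL1. With OPTN they were the 3 of 29 lysosome and autophagy receptor genes that were persistently higher, against 2.13% of all genes tested.

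Of the 380 persistent lower genes, 362 were not called in G2 cells. TRIB1, a pseudokinase that recruits the ubiquitin ligase COP1, had 95, 138, 85.8 and 123 CPM with MG132, 89.9, 122, 95.1 and 118 CPM with bortezomib and 40.6, 52.6, 53.6 and 45.3 CPM with MG132 and α-amanitin. It had 259, 232, 250.0 and 257 CPM in G2 cells and 264, 215, 370.2 and 279 CPM in asynchronous cells. The G2 and asynchronous libraries overlapped, all drug libraries lay below them, and the α-amanitin libraries were the lowest. TRIB1 stood at -1.35 ± 0.20, -1.41 ± 0.20 and -2.55 ± 0.21 on the log2 scale (edgeR adjusted p = 0.000347, 0.000515 and 9.67e-07), with a difference among drug groups (F test, adjusted p = 0.00223; 0.053 with the letter block). NFKBIA, the NF-κB inhibitor, showed a like order with 10.1, 14.6, 15.8 and 22.2 CPM with MG132, 13.3, 13.2, 15.6 and 13.5 CPM with bortezomib and 3.71, 3.13, 7.63 and 8.7 CPM with MG132 and α-amanitin, against 31.2, 37.4, 27.3 and 26.1 CPM in G2 cells and 42.2, 33, 38.4 and 29.1 CPM in asynchronous cells. NFKBIA stood at -1.18 ± 0.28, -1.36 ± 0.28 and -2.62 ± 0.30 on the log2 scale, and the drug groups differed (adjusted p = 0.0171), a call lost without MG132 with α-amanitin replicate 1 (0.117) or MG132 with α-amanitin replicate 2 (0.089), and also on the mitochondrial scale (0.0569) or with the letter block (0.0739). TNFAIP3, the NF-κB feedback inhibitor A20, stood at -1.01 ± 0.21, -1.20 ± 0.21 and -1.11 ± 0.21 with no such difference called (F test, adjusted p = 0.935). NFKBIA and TNFAIP3 were the 2 of 17 NF-κB targets that were persistently lower, while ICAM1 was persistently higher. Over all genes tested 2% were persistently lower and 2.13% higher.

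JUNB, an AP-1 subunit and immediate early gene (chr19:12791496-12793315, hg38), had 13.5, 12.6, 18 and 24.9 CPM with MG132, 13.6, 15.6, 16.9 and 11 CPM with bortezomib and 6.45, 7.92, 11.1 and 17.6 CPM with MG132 and α-amanitin. It had 54, 40.0, 33.7 and 35.4 CPM in G2 cells and 45.4, 49.1, 51.4 and 29.5 CPM in asynchronous cells. No drug library reached the lowest untreated one. The log2 fold changes were -1.35 ± 0.29, -1.62 ± 0.29 and -2.03 ± 0.30 (edgeR adjusted p = 0.0069, 0.00276 and 0.000267). Of 30 immediate early genes JUNB was the 1 persistently lower and ATF3 the 1 persistently higher, against 2% and 2.13% of all genes tested. In the single comparisons 18 were lower with MG132 and α-amanitin, 3 with MG132 and 4 with bortezomib. Over all genes tested 6.88%, 4% and 4.09% were lower in the same order. The upstream stretches of JUNB and of FJX1, another lower gene, are shown as examples of the lower set (RefSeq, GRCh38.p14). Capitals mark CCAAT and TATAAA.
JUNB, chr19:12791236-12791485, plus strand: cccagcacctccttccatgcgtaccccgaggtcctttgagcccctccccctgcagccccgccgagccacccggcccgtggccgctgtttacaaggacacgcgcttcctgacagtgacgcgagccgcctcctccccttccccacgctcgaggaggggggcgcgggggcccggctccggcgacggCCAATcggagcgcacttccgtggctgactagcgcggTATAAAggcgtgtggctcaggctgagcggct
FJX1, chr11:35618210-35618459, plus strand: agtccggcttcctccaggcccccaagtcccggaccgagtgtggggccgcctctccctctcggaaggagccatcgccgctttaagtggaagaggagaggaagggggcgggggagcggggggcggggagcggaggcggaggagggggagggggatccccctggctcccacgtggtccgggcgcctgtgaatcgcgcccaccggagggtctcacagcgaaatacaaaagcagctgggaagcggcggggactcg
JUNB held CCAAT 1 time and TATAAA 1 time, FJX1 held neither, and both had a GC content above 70%, at 70.8% and 70.4%.

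SOX4 and WNT16 were the 2 of 19 Wnt target and feedback genes with a persistent call, both lower, against 2% of all genes tested. SOX4, a developmental transcription factor, had 22.1, 16.4, 22.1 and 20.6 CPM with MG132, 16.1, 19.7, 24.6 and 28.6 CPM with bortezomib and 23.8, 25.3, 26.5 and 39.9 CPM with MG132 and α-amanitin. It had 48.4, 54.1, 62.1 and 52.1 CPM in G2 cells and 62.2, 46.3, 73 and 59.7 CPM in asynchronous cells. SOX4 stood at -1.57 ± 0.21, -1.44 ± 0.21 and -1.06 ± 0.21 on the log2 scale (edgeR adjusted p = 0.000162, 0.000698 and 0.00253). WNT16, a Wnt ligand gene, had 42, 37.3, 47.3 and 25.8 CPM with MG132, 34.5, 51.1, 43.5 and 44.3 CPM with bortezomib and 49.7, 41.3, 41.9 and 62.2 CPM with MG132 and α-amanitin. It had 82.4, 96.1, 104 and 99.7 CPM in G2 cells and 86.6, 88.3, 111 and 106 CPM in asynchronous cells. In both genes all drug libraries lay below all G2 and asynchronous ones, and WNT16 stood at -1.36 ± 0.20, -1.18 ± 0.20 and -1.01 ± 0.20 (adjusted p = 0.000354, 0.00197 and 0.00257).

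**Figure D3:**
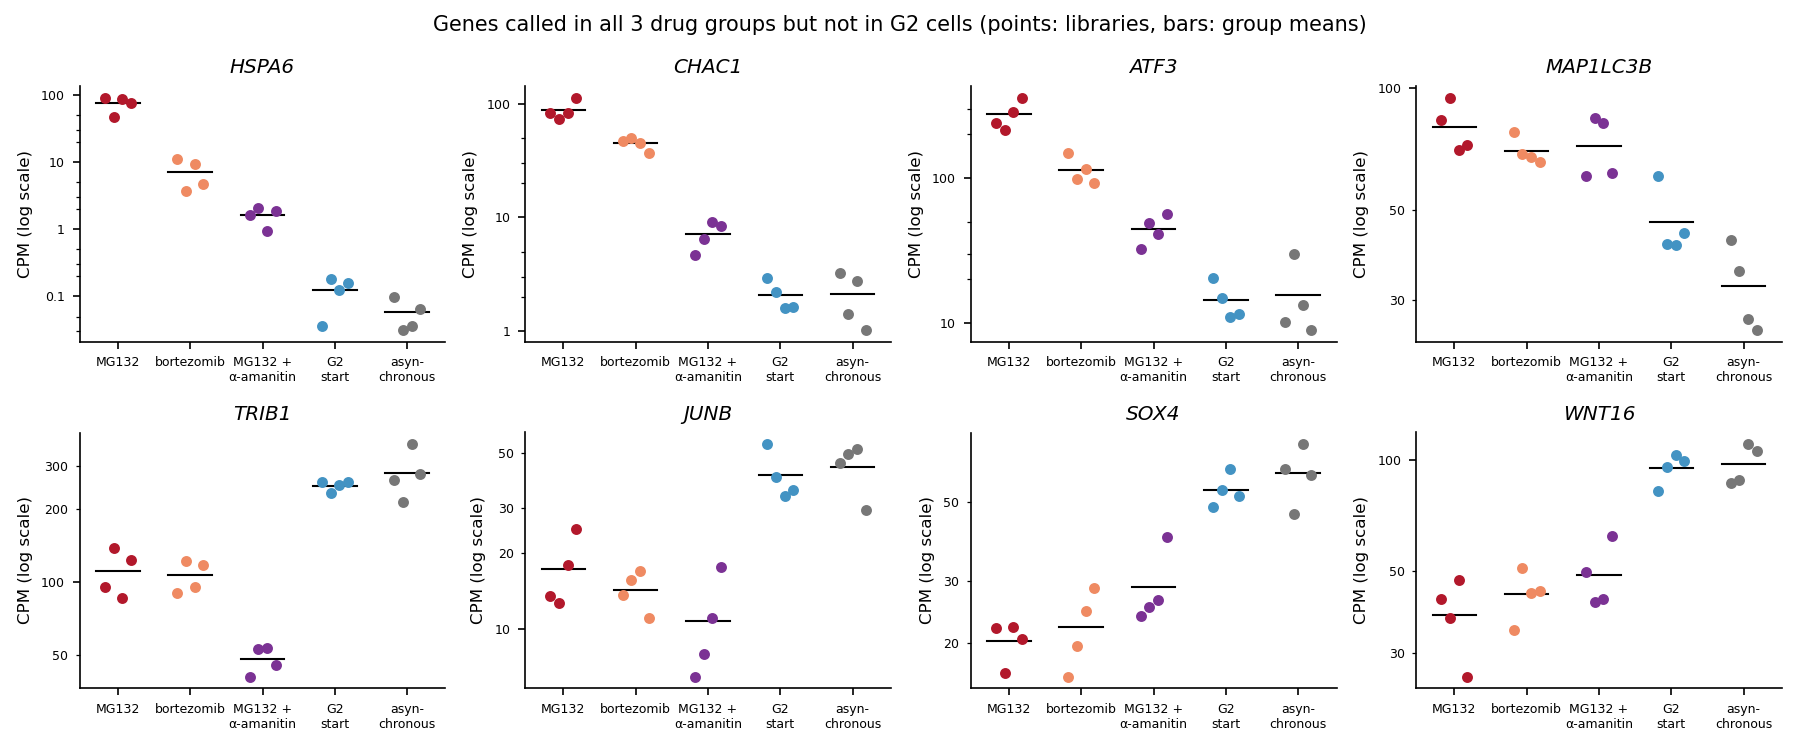
CPM on a log scale in each library for 8 genes called in all 3 drug groups but not in G2 cells; points are libraries and bars group means. HSPA6, CHAC1 and ATF3 step down over the 3 drug groups, MAP1LC3B does not, and in TRIB1, JUNB, SOX4 and WNT16 every drug library lies below every G2 and asynchronous library.

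Several lower genes named by the size of their change belong to no pathway list. FJX1, the four-jointed homologue, had 4.98, 5.26, 4.97 and 6.15 CPM with MG132, 3.99, 3.34, 5.7 and 4.29 CPM with bortezomib and 5.08, 5.63, 6.45 and 5.08 CPM with MG132 and α-amanitin, against 13.6, 14.8, 7.67 and 11.5 CPM in G2 cells and 15.6, 11.2, 20.6 and 14.4 CPM in asynchronous cells. IMP3, a protein of the U3 small nucleolar ribonucleoprotein, fell to 26.6, 36.2, 25.8 and 36.1 CPM with MG132, against 117, 54.6, 92.3 and 66.4 CPM in asynchronous cells. MFSD5, a molybdate transporter, had log2 fold changes of -1.45 ± 0.22, -1.46 ± 0.22 and -1.54 ± 0.22, and IMP3 of -1.41 ± 0.26, -1.47 ± 0.26 and -1.56 ± 0.26. PDE4B, a cAMP phosphodiesterase, stood at -1.50 ± 0.26, -1.32 ± 0.25 and -1.29 ± 0.25. MRM1, a methyltransferase of mitochondrial ribosomal RNA, stood at -1.35 ± 0.21, -1.23 ± 0.21 and -1.23 ± 0.21, and at -0.78 ± 0.21 in G2 cells (adjusted p = 0.0588). NR1D1, the nuclear receptor REV-ERBα, stood at -1.33 ± 0.33, -2.09 ± 0.34 and -1.30 ± 0.33, and its MG132 call was lost without MG132 replicate 3 (0.0502). Each of FJX1, MFSD5, IMP3 and PDE4B was also lower than in G2 cells by edgeR, with differences of -1.23, -1.32, -1.28 and -1.14 on the log2 scale.

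Of the 380 persistent lower genes 18 were already called lower in G2 cells, a count that depends on the processing: it was 237 of 968 with the GC and length offset, 60 of 546 with DESeq2 and 43 of 308 without the 4 GC-skewed libraries. THEM6, a thioesterase superfamily gene, had 6.58, 7.43, 7.53 and 11 CPM with MG132, 5.45, 8.25, 6.14 and 8.37 CPM with bortezomib and 7.99, 8.11, 8.7 and 10.4 CPM with MG132 and α-amanitin. It had 13.2, 13.7, 8.93 and 8.63 CPM in G2 cells and 29.8, 15.3, 30.3 and 18.3 CPM in asynchronous cells. Both drug and G2 libraries lay below the asynchronous ones, with log2 fold changes of -1.52 ± 0.25, -1.73 ± 0.25 and -1.41 ± 0.25 in the drug groups and -1.08 ± 0.25 in G2 cells. The G2 call (edgeR adjusted p = 0.0254) was lost without asynchronous replicate 1 (0.0779), asynchronous replicate 3 (0.062), G2 replicate 3 (0.0812) or G2 replicate 4 (0.0986), and also on the mitochondrial scale (0.205), with the strict filter (0.0501), with the replicate block (0.0619) or with the letter block (0.0613).

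Of 54 replication-dependent histone genes 4 were persistently lower (H2BC18, H2BC15, H3C6 and H4C1), against 2% of all genes tested. In the single comparisons 47 were lower with MG132 and α-amanitin, 7 with MG132, 6 with bortezomib and 3 in G2 cells. Over all genes tested 6.88%, 4%, 4.09% and 0.148% were lower in the same order. The list's median was -1.24, -1.32 and -2.42 in the drug groups and -1.43 in G2 cells. H4C1 had 30.7, 33.2, 69.7 and 71.6 CPM with MG132, 49.5, 34.9, 53.9 and 52.4 CPM with bortezomib and 14.7, 20.1, 30.1 and 39.5 CPM with MG132 and α-amanitin. It had 57.8, 67.3, 33.9 and 30.6 CPM in G2 cells and 459, 58.9, 247 and 112 CPM in asynchronous cells. Asynchronous replicate 1 was the highest and asynchronous replicate 2 overlapped with the drug libraries. H4C1 changes were -2.10 ± 0.49, -2.20 ± 0.50 and -3.07 ± 0.51 on the log2 scale (edgeR adjusted p = 0.0118, 0.0115 and 0.000726), with the call lost without asynchronous replicate 1 (0.0643), and also with the letter block (0.24) or without the 4 GC-skewed libraries (0.0835). Its G2 call (-2.21 ± 0.50) was lost without asynchronous replicate 1 (0.0976), G2 replicate 1 (0.056), G2 replicate 3 (0.0703) or G2 replicate 4 (0.0883), and also without a filter on low counts (0.0712), with limma-voom (0.0518), with the replicate block (0.0725) or with the letter block (0.0728). Histone genes together took 0.203% to 0.908% of the counts in drug libraries, against 0.344% to 2.44% in asynchronous libraries. Copies of histone genes are nearly identical and the treatment of multiple alignments is not given, so the split between copies is uncertain. Their mature mRNA is not polyadenylated, and these counts are of total RNA.

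The 2 directions differed in the structure of the genes called, and the libraries also differed in a trend with transcript length. Per doubling of length, log2 CPM relative to the mean of all libraries moved by -0.154 to 0.00752 in asynchronous libraries. The range was -0.0858 to 0.0309 with MG132, 0.00122 to 0.0373 with bortezomib and 0.0526 to 0.0973 with MG132 and α-amanitin. The part of this trend in the difference between the sets was not tested. Protein-coding genes of the higher set had a median transcript length of 3964 bases and 11 exons in the longest transcript, those of the lower set 2459 bases and 3 exons, and all 13747 protein-coding genes tested 3595 bases and 8 exons. Single-exon genes made up 0.608% of the higher, 8.91% of the lower and 1.96% of all protein-coding genes. The median span on the genome was 35.1 kb, 8.07 kb and 32.9 kb in the same order. Median GC content was 53.4% and 54.2% in the higher and lower sets, against 49.1% in all. When GC content and length were taken out as an offset, the lower set (968 genes) had a median length of 3219 bases and 5 exons with 5.6% single-exon genes, and the higher set (697 genes) 3461 bases and 10 exons. Of the persistent genes 376 of 403 and 359 of 380 were also called in all 3 with that offset. Genes are not independent samples, and these medians carry no test.

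**Figure D4:**
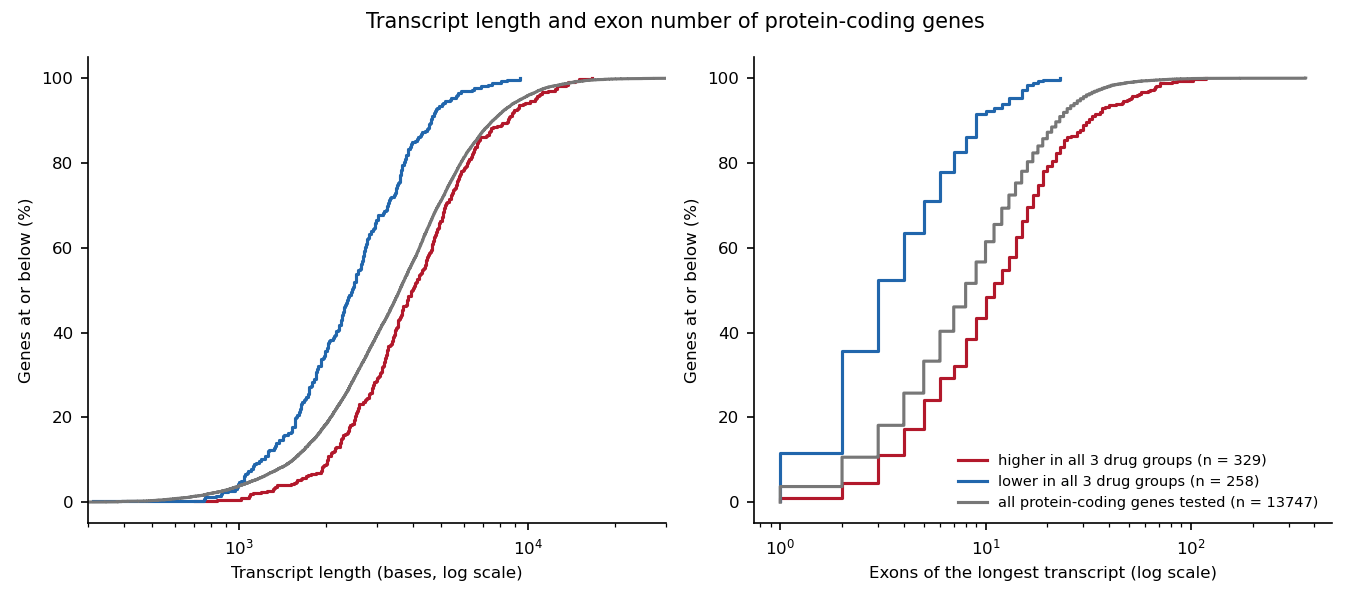
Cumulative share of protein-coding genes by transcript length (left, bases) and by exons of the longest transcript (right), both on log axes, for the persistently higher genes, the persistently lower genes and all genes tested. The curve of the lower genes lies to the left of the others, with medians of 2459 bases and 3 exons against 3964 bases and 11 exons in the higher genes.

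Short motifs were counted in the 250 bases upstream of the start, on both strands, with RefSeq promoters found for 139 of the 219 higher genes called in G2 cells, 113 of the 184 other higher genes, 246 of the 380 lower genes and 11772 of the 18959 genes tested. TTTGAA occurred in 11.5% of the first set, 3.54% of the second and 5.28% of the lower genes, against 8.68% of genes tested and 13.6% of all 27305 promoters of the table. CCAAT occurred in 27.3%, 31% and 33.7%, against 35.2% and 33%. TGATGNAA, a core of the ATF4 response element, occurred in 2.16%, 6.19% and 2.44%, against 1.49% and 3.19%. GAANNTTC occurred in 6.47%, 6.19% and 3.66%, against 4.09% and 5.85%. TATAAA occurred in 10.1%, 7.08% and 7.32%, against 5.77% and 11.1%. TTTCCCGC or TTTGGCGC, E2F-type sequences, occurred in 1.44%, 2.65% and 3.25%, against 3.13% and 1.96%. A match is a run of letters and not a bound site.

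Several lists of housekeeping and metabolic genes held no persistent gene, against 4.13% of all genes tested. No test compared these counts with that share, and short lists would hold few at it. Sterol synthesis genes had medians of 1.02, 0.669 and 0.518, against -0.045, 0.0172 and -0.027 over all genes tested. Of these 24 genes 0 were persistent, 7 being called higher with MG132, 0 with bortezomib and 1 with α-amanitin added. Over all genes tested 4.49%, 3.78% and 7.6% were higher in the same order. The 81 cytosolic ribosomal protein genes had medians of -0.179, -0.597 and -0.621 and the 34 proteasome subunit genes of -0.187, -0.352 and -0.447, with 0 persistent genes in either list. The 13 mitochondrial mRNAs had medians of -0.333, 0.0245 and 0.237, again with 0 persistent. Of 32 homologous recombination and Fanconi genes 2 were persistently lower (FANCC and FANCF), and of 18 TGF-β and BMP feedback genes 1 (TGIF1). Of 27 epithelial differentiation and adhesion genes 3 were persistently higher (KRT20, MUC13 and KRT81) and 1 lower (S100A4). A list of 8 genes that an earlier account of these same libraries had found raised by thymidine held 6 persistent genes, which is no independent evidence.

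**Figure D5:**
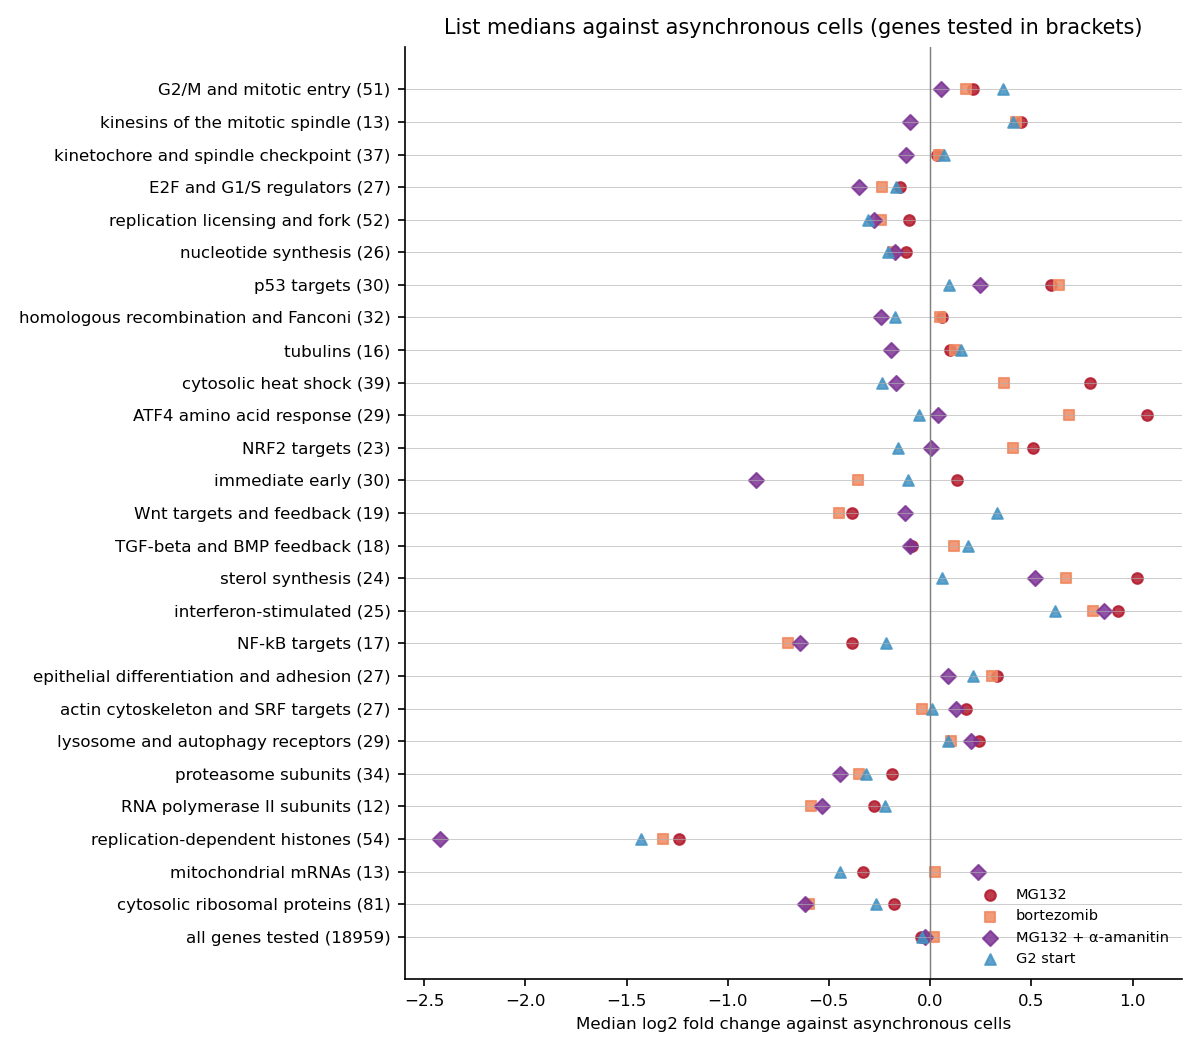
Median log2 fold change against asynchronous cells of each gene list in the 3 drug groups and in G2 cells, with the number of genes tested in brackets. The heat shock, ATF4 and NRF2 lists lie to the right with MG132 and bortezomib and between -0.168 and 0.0363 with α-amanitin added, where their sign depends on the scaling, interferon-stimulated genes lie to the right in all 4 groups, and histones lie to the left in all 4.

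Of 1076 repeat subfamilies, 1 was persistent (0.0929%): HERV9-int, the internal part of an endogenous retrovirus family, at a mean log2 CPM of 2.87. It had 7.14, 5.42, 8.15 and 4.66 CPM with MG132, 20.1, 7.4, 13.7 and 9.48 CPM with bortezomib and 9.39, 9.55, 9.32 and 5.72 CPM with MG132 and α-amanitin. It had 4.78, 7.95, 5.4 and 8.87 CPM in G2 cells and 2.16, 2.01, 1.35 and 2.48 CPM in asynchronous cells. The drug libraries lay above all asynchronous ones, with log2 fold changes of 1.66 ± 0.31, 2.66 ± 0.32 and 2.08 ± 0.32 (edgeR adjusted p over the subfamilies = 0.00917, 3.7e-05 and 0.00216) and 1.75 ± 0.31 in G2 cells. The persistent count became 2 without asynchronous replicate 2 or MG132 replicate 4. The HERV9-int call was lost without asynchronous replicate 3 (0.0603) or MG132 replicate 3 (0.062), and the G2 call without asynchronous replicate 1 (0.0794), asynchronous replicate 2 (0.102), asynchronous replicate 3 (0.078), G2 replicate 2 (0.0839) or G2 replicate 4 (0.113), and also with limma-voom (0.0587), with the replicate block (0.0623), with the letter block (0.213) or without the 4 GC-skewed libraries (0.409). In the single comparisons 6 subfamilies were called with MG132 (0.558%), 7 with bortezomib (0.651%), 2 with MG132 and α-amanitin (0.186%) and 1 in G2 cells (0.0929%). HERV9-int lies under the level set for naming, and it, LTR12C, a long terminal repeat of HERV9, and HERV9NC-int were chosen after their values were seen. LTR12C stood at 1.49 ± 0.23, 1.34 ± 0.23 and 0.35 ± 0.22 and HERV9NC-int at 1.72 ± 0.23, 2.28 ± 0.24 and 0.56 ± 0.23, both called with MG132 and with bortezomib but not with α-amanitin added, and the drug groups differed (F test, adjusted p = 0.0336 and 0.00229). The call for LTR12C was lost without MG132 replicate 1 (0.0519), MG132 replicate 3 (0.0866), MG132 with α-amanitin replicate 2 (0.135), MG132 with α-amanitin replicate 3 (0.189) or MG132 with α-amanitin replicate 4 (0.14), and also with total library size (0.0502), on the mitochondrial scale (0.0523), with the 16 libraries alone (0.0792) or with the letter block (0.0959). How reads that align to several copies were counted is not given in the sources used here, so subfamily levels are uncertain.

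At the edge of the rule, PCOLCE2 was the last gene counted as higher, with a largest adjusted p of 0.0497, and KLHL25 the first left out, at 0.0504. On the lower side PATZ1 stood at 0.0498 and PSMG3 at 0.0505.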

How the data were processed

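Per the labels' protocols, RNA was taken up in TRIzol, treated with DNase, freed of ribosomal RNA and sequenced from strand-specific libraries. What the authors deposited is a single matrix of raw, unscaled integer counts, with 39918 genes and 1174 repeat subfamilies as features. All 20 columns matched a sample by name and 0 were left out. FastQC, cutadapt 1.18, STAR and hg38 appear in the submitters' processing notes, with no role stated. Which program counted the reads, on which annotation and strand, and how it treated multiple alignments is not given in the sources used here, so antisense, overlapping and near-identical genes are uncertain. Positions, exons and lengths for 38661 genes are from GENCODE release 29 (hg38).

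From these counts all 20 libraries were fitted in R 4.3.3 with edgeR 4.0.16 (filterByExpr, TMM, robust glmQLFit, 15 residual degrees of freedom), 1 mean per group. The drug groups were each compared with asynchronous cells and jointly with each other, and their mean with G2 cells. Fold changes are log2 with standard errors; CPM use TMM-adjusted totals. Replicates were checked for duplicate deposition by a chi-square test of their counts, and none was treated as one. Scripts were tested on simulated counts with changes put into all 3 drug groups. A log2 change of 1 in either direction was called in all 3 for 13 of 94 genes (13.8%). A log2 change of 2 was called for 73 of 97 (75.3%).

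Alternatives were scaling by RLE, by total counts or by 13 mitochondrial mRNAs, dropping the filter or asking for 1 CPM in 4 libraries, DESeq2 1.42.0, limma-voom 3.58.1, the 16 libraries alone, blocks for replicate number and code letter, omission of the 4 GC-skewed libraries, a GC and length offset, a 2-fold minimum and omission of each library. Named genes were the 10 highest and 10 lowest protein-coding persistent genes by their smallest fold change (mean log2 CPM of at least 3, no overlap of drug and asynchronous libraries), the same among genes called in G2 cells, up to 4 per list, a fixed set and persistent repeats at that level; the text gives those that carry a result. Members, lists and fixed genes were chosen with earlier results of these data known.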

Additional observations from a re-analysis of the deposited data

Results flagged for a closer look

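A library stood apart from the other 3 of its group in 14 of the 220 groups of 4 examined by Dixon's test, where chance flags about 5%. In drug groups these were IRAG1 in MG132 replicate 4 (16.8 CPM) and bortezomib replicate 1 (18.5 CPM), ACTA2 in MG132 replicate 2 (2.96 CPM), OSGIN1, SOX4 and HERV9-int in MG132 with α-amanitin replicate 4 (41.8, 39.9 and 5.72 CPM), NFKBIA in bortezomib replicate 3 (15.6 CPM) and HERV9NC-int in bortezomib replicate 1 (106 CPM). In G2 cells they were TUBA1A and MAP1LC3B in replicate 1 (155 and 60.8 CPM) and MFSD5 and E2F1 in replicate 2 (30.1 and 25.6 CPM). In asynchronous cells they were OSGIN1 (10.9 CPM) and HERV9NC-int (20.4 CPM) in replicate 2.

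The 3 drug groups differed from each other by the joint F test in 11 of the genes and repeats given. Among higher genes the adjusted p was 6.65e-08 for HSPA6, 4.41e-06 for CHAC1, 6.41e-06 for BAG3, 0.000196 for OSGIN1, 0.000322 for ATF3, 0.00539 for TSC22D3 and 0.0109 for TRIML2, with MG132 highest and MG132 with α-amanitin lowest on average in all 7. Among lower genes it was 0.00223 for TRIB1 and 0.0171 for NFKBIA, with MG132 and α-amanitin lowest. For the repeats HERV9NC-int and LTR12C it was 0.00229 and 0.0336.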

How the results depend on the processing

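Of 38 persistent genes and repeats given with values, 14 kept their calls in every alternative run; the mitochondrial scale ended 14, the code letter block 13 and omission of the 4 GC-skewed libraries 4, and limma-voom 0. For named genes and repeats 184 values were followed, which were fold changes and some F test results, the latter without a sign. Of the fold changes, that of CCNB1 in the α-amanitin group, which was not called, changed sign, to -0.0606 on the mitochondrial scale. Medians near 0, such as those of heat shock and ATF4 genes with α-amanitin, changed sign too. That scale moved the median of all genes to -0.24, -0.14 and -0.38 (MG132, bortezomib, MG132 with α-amanitin), against -0.05, 0.02 and -0.03, and total library size to -0.01, 0.13 and 0.18. Counts that moved by more than 1.5 times follow; the cause was not tested. With MG132 (1610 calls in all) there were 682 on the mitochondrial scale, 837 with the code letter block, 1048 without the 4 GC-skewed libraries and 3057 with the GC and length offset. With bortezomib (1491) there were 971 at 2-fold, 500 on the mitochondrial scale, 2329 with DESeq2, 964 with the replicate block, 228 with the letter block and 3100 with the offset. With MG132 and α-amanitin (2746) there were 1541 with the letter block, 4806 without the GC-skewed libraries and 4603 with the offset. Persistent higher genes (403) numbered 104 on the mitochondrial scale, 108 with the letter block and 697 with the offset. Persistent lower genes (380) numbered 182 at 2-fold, 200 with total size, 174 on the mitochondrial scale, 188 without a filter, 43 with the letter block and 968 with the offset. Those also higher in G2 cells (219) numbered 64 on the mitochondrial scale, 137 with the strict filter, 332 with DESeq2, 145 with the replicate block, 55 with the letter block and 376 with the offset. Those also lower (18) numbered 7 at 2-fold, 10 with total size, 2 on the mitochondrial scale, 5 without a filter, 9 with the strict filter, 60 with DESeq2, 5 with the replicate block, 3 with the letter block, 43 without the GC-skewed libraries and 237 with the offset. Persistent repeats (1) numbered 2 with DESeq2, without the GC-skewed libraries or with the offset, and 0 with the letter block. Genes that differed among drug groups (294) numbered 590 with DESeq2, 179 with the letter block, 545 without the GC-skewed libraries and 567 with the offset. Genes that differed between the drug mean and G2 cells (819) numbered 435 at 2-fold, 1385 on the mitochondrial scale, 188 with the letter block and 1340 with the offset.

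Leaving out 1 library gave 1077 to 2152 calls with MG132, 575 to 2156 with bortezomib and 1669 to 3475 with MG132 and α-amanitin, 228 to 475 persistent higher and 170 to 532 lower genes, 96 to 246 and 2 to 39 also called in G2 cells, 0 to 2 repeats, 156 to 376 genes differing among drug groups and 341 to 1201 between drug mean and G2 cells. The replicate number showed little sign of pairing the samples. Of 40 same-numbered pairs 12 correlated above 0.1 (lowest -0.70, highest 0.73), and 7 of 20 libraries correlated best with their own number. Pairing is not excluded: replicates 1, 2 and 4 of MG132 share their code letters with those of MG132 with α-amanitin. With the replicate block there were 287 persistent higher and 255 lower genes. The fit of 16 libraries gave no result on G2 cells, and the 2-fold minimum none among drug groups. Depth was not varied; GBP2, VWF and HSPA6 rest on few asynchronous counts.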
